A study of Mus musculus with 6 samples.

Results

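The genes described here are 10 of the 21878 genes in the deposited table of read counts, and they were chosen by name. They are the triggering receptors expressed on myeloid cells (Trem1, Trem2 and Trem3), their signalling adaptor Tyrobp, and 6 genes that mark lipid-associated macrophages: Spp1, Gpnmb, Cd9, Lgals3, Fabp4 and Fabp5. RNA was sequenced from wild-type C57BL/6 mouse macrophages, grown from bone marrow in 50 ng/mL of the growth factor M-CSF. All 6 samples had first shared medium for 48 h, across a membrane with 0.4 µm pores, with the Lewis lung carcinoma line LLC. The medium was then replaced, and the macrophages received the plant sesquiterpene β-elemene at 100 µg/mL (3 libraries) or PBS, phosphate-buffered saline, in equal volume (3 libraries), for 24 h. No group without carcinoma cells is among the samples, so each value below compares macrophages that had all been exposed to tumour medium.

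Trem1 and Trem3 are activating receptors of neutrophils and monocytes, whereas Trem2 binds lipids and lipoproteins and is a receptor of tissue macrophages, microglia and osteoclasts. None of them signals by itself. Each pairs with Tyrobp (also called DAP12), whose phosphorylated cytoplasmic tail recruits the kinase Syk. In fatty tissue, atheroma and tumours, macrophages that carry Trem2 and express the remaining genes of the group together are called lipid-associated macrophages. Spp1 encodes the secreted protein osteopontin, Gpnmb a transmembrane glycoprotein of lysosomes and the cell surface, Cd9 a tetraspanin, Lgals3 the sugar-binding protein galectin-3, and Fabp4 and Fabp5 cytosolic carriers of fatty acids.

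Gene counts summed to between 18916844 and 20550078 in the β-elemene libraries and between 20524959 and 20729887 in the PBS libraries. Levels are given in CPM, counts relative to library size, after TMM scaling, which sets the level of the bulk of genes equal between libraries. This choice matters here. The TMM factor was at most 0.812 in a β-elemene library and at least 1.24 in a PBS library. When only library size was used for scaling, the median over all tested genes of the log2 fold change, β-elemene over PBS, was -0.70 instead of -0.06. All 12 macrophage markers had counts, with a summed level of 16828 to 17376 CPM with β-elemene and 15164 to 16312 CPM with PBS, and the most abundant was Lyz2, the myeloid lysozyme. Within that sum 8 markers were higher and 4 lower with β-elemene on the TMM scale, beside 36.6% higher and 40.2% lower among all genes tested. Mrc1, the mannose receptor, averaged 94.0 CPM with β-elemene and 2343 CPM with PBS, Csf1r, the M-CSF receptor, 928 CPM with β-elemene and 2672 CPM with PBS, and Fcgr1, an antibody receptor, 1490 CPM with β-elemene and 206 CPM with PBS. Carcinoma markers summed to at most 0.195 CPM with β-elemene and at most 0.194 CPM with PBS, and Krt19 and Cldn4 had no count. Some markers of other cells moved with the treatment: mast cell and basophil markers summed to at least 152 CPM with β-elemene and at most 15.5 CPM with PBS, nearly all of it Hdc (Fcer1a had no count), and endothelial markers to at least 157 CPM with β-elemene and at most 99.5 CPM with PBS. The endothelial list split into 2 higher and 2 lower: Kdr averaged 143 CPM with β-elemene and 3.85 CPM with PBS, whereas Vwf averaged 36.4 CPM with β-elemene and 75.7 CPM with PBS, and Pecam1 2.28 CPM with β-elemene and 18.3 CPM with PBS. Their part in the results was not tested. Whether the replicates were separate cultures or animals is not stated in the labels, and the spread behind the p-values may therefore be technical only. In bulk RNA, fewer cells that express a gene and less RNA per cell cannot be told apart.

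The genes did not move as a block. Of the 9 that passed the filter on low counts, Trem1, Tyrobp, Gpnmb and Cd9 were higher with β-elemene, Spp1, Lgals3, Fabp4 and Fabp5 were lower, and Trem2 did not pass the test (edgeR quasi-likelihood test, Benjamini-Hochberg adjusted p below 0.05). Trem3 had too few counts to be tested. Among all 11459 genes tested, 36.6% were higher and 40.2% were lower, or 76.7% in either direction. A count of 4 higher and 4 lower among 9 is therefore near the share for all genes. The absolute log2 change had a median of 0.64 over all genes tested, and Spp1, Trem1 and Gpnmb lay above it. The signed median was -0.02 for the 9 genes.

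**Figure D1:**
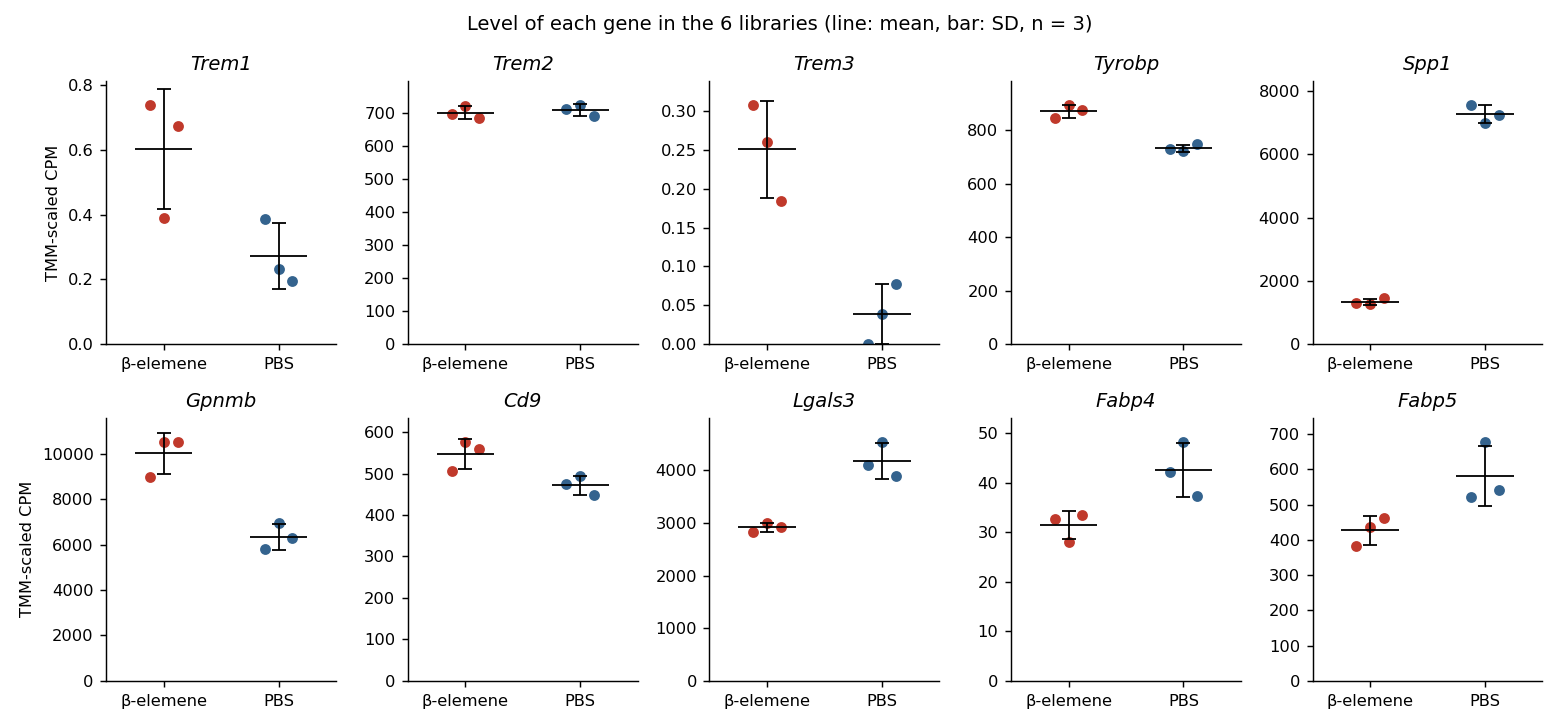
Level of each of the 10 genes in TMM-scaled CPM, with 1 point per library, a line for the mean and a bar for the SD (n = 3 per group), and each vertical axis starting at 0. Spp1 lies between 1264 and 1446 CPM with β-elemene and between 6996 and 7553 CPM with PBS, while the Trem2 points of the groups lie at the same height.

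Trem1, which amplifies inflammatory signals from Toll-like receptors, was close to the limit of detection. It had 12, 6 and 11 counts in β-elemene replicates 1, 2 and 3, against 10, 6 and 5 counts in PBS replicates 1, 2 and 3. After scaling this was 0.738, 0.391 and 0.674 CPM with β-elemene and 0.387, 0.233 and 0.195 CPM with PBS. The lowest β-elemene library and the highest PBS library almost touched, and the order of the groups rested on the scaling, since 6 counts occurred in both. Its fitted log2 change was 1.13 (SE 0.48, edgeR adjusted p = 0.0441). The call was lost without β-elemene replicate 1 (edgeR adjusted p = 0.143), without PBS replicate 2 (edgeR adjusted p = 0.102) and without PBS replicate 3 (edgeR adjusted p = 0.129), and Trem1 did not pass the filter without β-elemene replicate 3. It was lost with library size alone too (0.51, edgeR adjusted p = 0.328). Summed over libraries, 29 counts with β-elemene and 21 with PBS gave a TMM-scaled ratio of 2.22 (exact 95% counting interval 1.23 to 4.10), and with library size alone a ratio of 1.43 (0.788 to 2.64). These intervals cover counting error only.

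Trem3, a receptor of mouse myeloid cells next to Trem1 on chromosome 17, was rarer still. It had 5, 4 and 3 counts in the β-elemene libraries and 0, 1 and 2 counts in the PBS libraries. The groups did not overlap, at 0.308, 0.260 and 0.184 CPM with β-elemene and 0, 0.0388 and 0.0780 CPM with PBS, and a count of 0 allows up to 3 counts there, or 0.116 CPM. The scaled ratio of 12 to 3 summed counts was 6.44, with a wide exact 95% counting interval of 1.74 to 35.6. Neither receptor was thus measured well enough at this depth to give the size of a difference. Markers of neutrophils, which carry Trem1, had counts for 10 of 11 genes, with summed levels of 537 to 643 CPM with β-elemene and 542 to 588 CPM with PBS, nearly all of it Csf3r, a receptor that macrophages express as well. Of the 8 that were tested, 4 were higher and 2 lower, beside 36.6% higher and 40.2% lower among all genes tested. S100a8 averaged 15.8 CPM with β-elemene and 4.03 CPM with PBS, Ngp 5.47 CPM with β-elemene and 1.93 CPM with PBS, and Camp 1.13 CPM with β-elemene and 0.0519 CPM with PBS. Mpo, in contrast, averaged 0.145 CPM with β-elemene and 1.54 CPM with PBS, and Cxcr2 0.0422 CPM with β-elemene and 1.40 CPM with PBS. Among the rest, Ly6g averaged 0.0830 CPM with β-elemene and 0 CPM with PBS, Elane 0.0204 CPM with β-elemene and 0.272 CPM with PBS, and Retnlg had no count. The part of such cells in the Trem1 and Trem3 values was not tested.

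Trem2 (chromosome 17, 48346401 to 48352276, GRCm38.p6) was abundant in every library. It stood at 699, 723 and 686 CPM with β-elemene and at 715, 726 and 692 CPM with PBS. The groups overlapped fully. The log2 fold change was -0.02 (SE 0.06, 95% interval -0.14 to 0.11, edgeR adjusted p = 0.801), a smaller change than that of 98.4% of the genes tested. That interval holds on the TMM scale only. With library size alone, Trem2 was lower by a log2 fold change of -0.65 (edgeR adjusted p = 1.51e-07), and with the upper quartile by -0.33 (edgeR adjusted p = 1.18e-04). Relative to the median of all genes in the same fit, Trem2 lay at 0.04 on the log2 scale with TMM and 0.05 with library size alone. The tested genes with the most similar levels over the 6 libraries were Calr, an endoplasmic reticulum chaperone, Eif4a1, a translation factor, and Cndp2, a dipeptidase. Their root-mean-square differences from Trem2 in log2 CPM were 0.066, 0.082 and 0.129. For Trem1 the nearest were 4930467E23Rik, Pla2g4b and Gm40498, at 0.328 to 0.425, where few counts set the pattern.

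Tyrobp, the adaptor on chromosome 7, stood at 845, 894 and 874 CPM with β-elemene, against 730, 721 and 746 CPM with PBS. All 3 β-elemene libraries were above all 3 PBS libraries on this scale. The log2 fold change was 0.25 (SE 0.06, edgeR adjusted p = 0.00145) with TMM, but -0.07 with the upper quartile (edgeR adjusted p = 0.300) and -0.39 with library size alone (edgeR adjusted p = 2.61e-05), so its direction depended on the scaling. A ratio of 2 genes in the same library does not. The log2 ratio of Trem2 to Tyrobp counts was -0.273, -0.306 and -0.349 with β-elemene and -0.030, 0.010 and -0.110 with PBS. Trem2 was thus lower relative to its adaptor in each β-elemene library than in any PBS library, with a difference of -0.266 on the log2 scale. The exact two-sided permutation test gave p = 0.10, the smallest that 3 libraries against 3 allow, and 0.15 after adjustment over the 6 ratios computed. The log2 ratio of Trem1 to Trem2, with 0.5 added to each count, was -9.83, -10.7 and -9.93 with β-elemene and -10.8, -11.5 and -11.7 with PBS. On those values the groups just failed to overlap (exact permutation p = 0.10, adjusted 0.15). The nearest libraries were β-elemene replicate 2 (6 Trem1 and 11106 Trem2 counts) and PBS replicate 1 (10 and 18460 counts), at -10.739 and -10.780. Without the added 0.5 their order reverses, so this separation rests on the added 0.5. That of Trem1 to Tyrobp averaged -10.5 ± 0.501 with β-elemene and -11.4 ± 0.490 with PBS (SD, n = 3), and there the groups overlapped (exact permutation p = 0.20, adjusted 0.24).

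**Figure D2:**
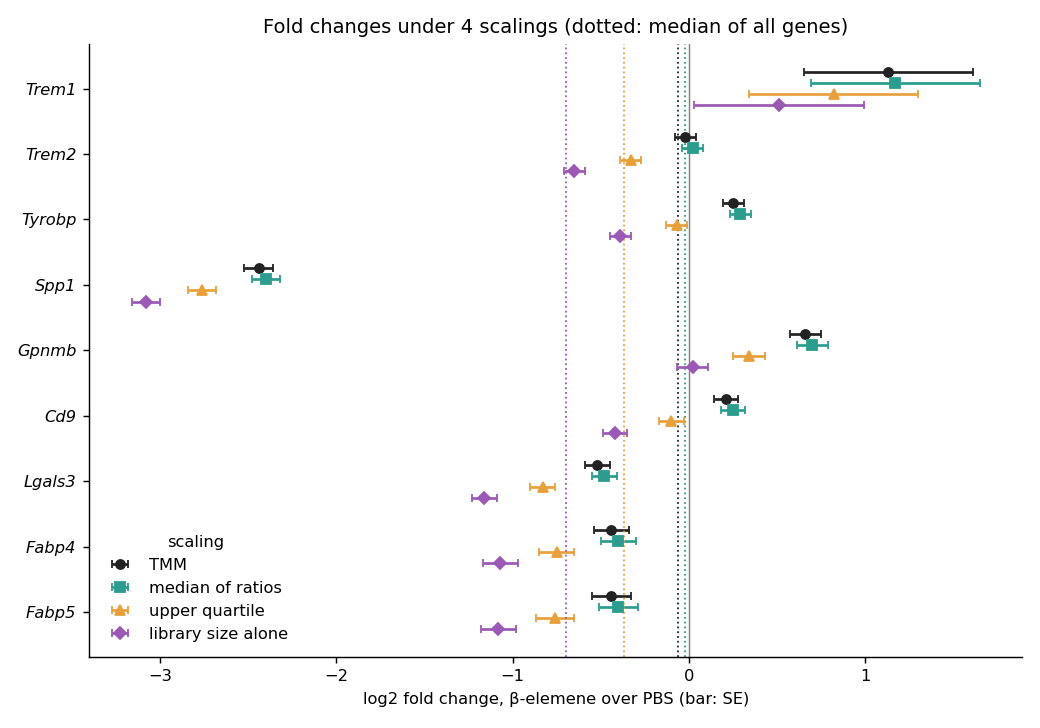
Log2 fold change of β-elemene over PBS for the 9 tested genes under 4 ways of scaling the libraries, with the SE as bars and the median of all genes under each scaling as a dotted line. Spp1 lies at -2.44 with TMM and -3.08 with library size alone, while Tyrobp and Cd9 cross 0 and Trem2 stays beside the dotted lines.

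Spp1 showed the largest fall of the group under each of the 4 scalings. It stood at 1301, 1264 and 1446 CPM with β-elemene and at 7553, 6996 and 7248 CPM with PBS. The highest β-elemene library was far below the lowest PBS library. The log2 fold change was -2.44 (SE 0.08, edgeR adjusted p = 5.66e-12), which is 5.44-fold lower, and 11.2% of the genes tested changed by as much in either direction. Spp1 took 0.104%, 0.103% and 0.115% of all counts with β-elemene, against 0.950%, 0.869% and 0.899% with PBS. Among the 20640 genes with a known length, its rank by level per length was 84, 81 and 71 in the β-elemene libraries and 4, 6 and 6 in the PBS libraries, and a rank within a library does not depend on scaling. A lower rank was not particular to Spp1. Trem2 ranked 120, 111 and 124 with β-elemene and 52, 46 and 52 with PBS. Tyrobp ranked 35, 31 and 33 with β-elemene and 19 in each PBS library. Gpnmb ranked 22, 19 and 20 with β-elemene and 17, 15 and 16 with PBS.

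Gpnmb, which is often named with Spp1 as a mark of foamy and tumour-associated macrophages, moved the other way on the TMM scale. It stood at 8972, 10534 and 10535 CPM with β-elemene, against 5806, 6932 and 6282 CPM with PBS. The groups did not overlap, and β-elemene replicate 1 was the lowest of its group. The log2 fold change was 0.66 (SE 0.09, edgeR adjusted p = 1.63e-05), but with library size alone it was 0.02 (edgeR adjusted p = 0.807). Its share of all counts was 0.717%, 0.855% and 0.836% with β-elemene and 0.730%, 0.861% and 0.779% with PBS, and these shares overlapped. The log2 ratio of Spp1 to Gpnmb counts was -2.785, -3.059 and -2.865 with β-elemene and 0.379, 0.013 and 0.206 with PBS. Spp1 had more counts than Gpnmb in each PBS library and far fewer in each β-elemene library. The ratio differed by -3.10 on the log2 scale, or 8.59-fold, the widest of the 6 ratios (exact permutation p = 0.10, the smallest possible, adjusted 0.15).

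The promoters of Spp1, Gpnmb and Trem2 are shown because these genes took 3 courses on the TMM scale: Spp1 was lower, Gpnmb was higher and Trem2 did not pass the test. Each window runs from 250 bases before to 50 after the annotated start, 5′ to 3′ on the plus strand of GRCm38.p6, with sequence from RefSeq. Capitals mark matches, on either strand, to the motifs CACGTG (E-box), TGANTCA (AP-1), GAGGAAGT (ETS) and GGGA, any 3 bases and CCC (kappaB). The Spp1 window is chr5:104434861-104435160, the Gpnmb window chr6:49036268-49036567 and the Trem2 window chr17:48346151-48346450.
Spp1: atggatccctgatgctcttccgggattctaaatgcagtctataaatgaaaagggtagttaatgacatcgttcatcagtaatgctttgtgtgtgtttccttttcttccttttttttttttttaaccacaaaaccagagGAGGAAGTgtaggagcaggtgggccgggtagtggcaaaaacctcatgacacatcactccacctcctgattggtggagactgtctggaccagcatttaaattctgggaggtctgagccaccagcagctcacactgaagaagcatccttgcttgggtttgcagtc
Gpnmb: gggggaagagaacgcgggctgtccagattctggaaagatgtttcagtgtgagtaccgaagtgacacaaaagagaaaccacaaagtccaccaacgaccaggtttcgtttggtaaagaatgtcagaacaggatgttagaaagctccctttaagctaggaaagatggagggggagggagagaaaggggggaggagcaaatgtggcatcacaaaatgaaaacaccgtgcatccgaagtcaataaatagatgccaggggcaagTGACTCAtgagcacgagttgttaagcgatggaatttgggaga
Trem2: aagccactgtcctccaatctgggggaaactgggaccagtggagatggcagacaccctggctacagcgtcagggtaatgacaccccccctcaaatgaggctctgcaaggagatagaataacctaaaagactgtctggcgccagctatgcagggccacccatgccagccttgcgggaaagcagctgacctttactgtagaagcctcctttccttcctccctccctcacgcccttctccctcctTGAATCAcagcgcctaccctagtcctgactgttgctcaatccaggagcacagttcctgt
The Spp1 window held an ETS match that begins 113 bases before the start. The N in the AP-1 pattern stands for any base, so the pattern is loose. The Gpnmb window held a match to it, TGACTCA, 9 bases into the transcript. The Trem2 window held a match with another middle base, TGAATCA, that begins 9 bases before the start. Windows were found for 6 of the 10 genes (Spp1, with a second start, Gpnmb, Cd9, Lgals3, Trem1 and Trem2), and the windows of Cd9, Lgals3, Trem1 and the second Spp1 start held none of the motifs. Of 32851 such windows over all genes, 7.81% held the AP-1 pattern with any middle base, 3.20% the ETS motif, 7.15% the E-box and 5.55% the kappaB motif. A match describes the letters only, and binding was not measured.

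Lgals3 stood at 2833, 2997 and 2914 CPM with β-elemene, against 4100, 4541 and 3880 CPM with PBS. No β-elemene library reached the lowest PBS library. Its log2 fold change was -0.52 (SE 0.07, edgeR adjusted p = 2.65e-05), and it was -1.16 with library size alone. Cd9 stood at 506, 577 and 558 CPM with β-elemene and at 476, 493 and 447 CPM with PBS. The groups were separate but close, with 506 CPM as the lowest β-elemene value and 493 CPM as the highest PBS value. For Cd9 the log2 fold change was 0.21 (SE 0.07, edgeR adjusted p = 0.0101) with TMM, -0.10 with the upper quartile (edgeR adjusted p = 0.169) and -0.42 with library size alone (edgeR adjusted p = 4.52e-05), so the direction for Cd9 depended on the scaling as well. Within a library, the log2 ratio of Cd9 to Lgals3 counts averaged -2.42 ± 0.061 with β-elemene and -3.14 ± 0.052 with PBS (SD, n = 3). It was thus 1.66-fold higher with β-elemene, with no overlap (exact permutation p = 0.10, adjusted 0.15).

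Both fatty acid carriers were lower by about the same factor. Fabp5, on chromosome 3, stood at 381, 436 and 463 CPM with β-elemene, against 522, 679 and 541 CPM with PBS. PBS replicate 2 was the highest of its group, and the groups did not overlap. Fabp5 changed on the log2 scale by -0.44 (SE 0.11, edgeR adjusted p = 0.00344). Fabp4, which lies 187731 bases beyond Fabp5 and is best known from fat cells, stood at 32.7, 28.1 and 33.5 CPM with β-elemene and at 42.2, 48.3 and 37.3 CPM with PBS. Its groups did not overlap either, and PBS replicate 2 was again the highest. Fabp4 changed on the log2 scale by -0.44 (SE 0.10, edgeR adjusted p = 0.00165). The log2 ratio of Fabp4 to Fabp5 counts averaged -3.76 ± 0.207 with β-elemene and -3.77 ± 0.120 with PBS (SD, n = 3), and the groups overlapped (exact permutation p = 1.00). Among adipocyte markers, 6 of 7 had counts, with summed levels of 64.7 to 77.3 CPM with β-elemene and 92.9 to 94.4 CPM with PBS, nearly all of it Adipor2. The hormone genes that define fat cells were near or at 0, with Adipoq averaging 0 CPM with β-elemene and 0.958 CPM with PBS, and Lep without a count. Cfd averaged 0 CPM with β-elemene and 1.48 CPM with PBS, and Adipor2 69.1 CPM with β-elemene and 91.1 CPM with PBS. The part of fat cells in the Fabp4 value was not tested.

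**Figure D3:**
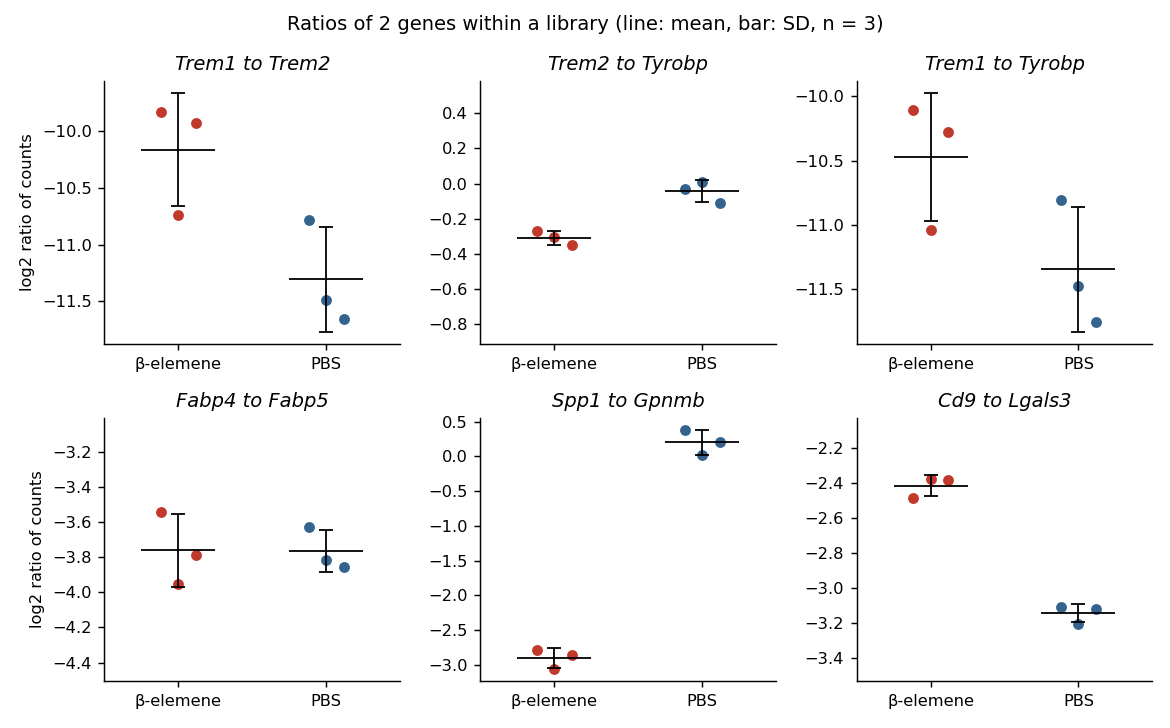
Log2 ratio of the counts of 2 genes in the same library, with 1 point per library, a line for the mean and a bar for the SD (n = 3 per group); the axes differ in position and range. Spp1 to Gpnmb differs by 3.10 on the log2 scale between the groups, while Fabp4 to Fabp5 does not separate them.

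Levels of different genes were compared per kilobase of the principal transcript. With β-elemene the order was Gpnmb (2706 ± 244 CPM per kilobase), Lgals3 (2054 ± 57.8), Tyrobp (1544 ± 43.4), Spp1 (887 ± 63.9), Trem2 (646 ± 17.3), Cd9 (445 ± 30.1), Fabp5 (433 ± 42.1) and Fabp4 (35.1 ± 3.26). With PBS it was Spp1 (4821 ± 185 CPM per kilobase), Lgals3 (2941 ± 237), Gpnmb (1713 ± 153), Tyrobp (1299 ± 23.0), Trem2 (653 ± 16.1), Fabp5 (588 ± 86.7), Cd9 (384 ± 18.9) and Fabp4 (47.5 ± 6.14), all as SD with n = 3. Spp1 thus stood after Gpnmb, Lgals3 and Tyrobp with β-elemene and first with PBS. Neighbours whose libraries overlapped were Cd9 and Fabp5 with β-elemene and Trem2 and Fabp5 with PBS. Trem1 and Trem3 were at most 0.309 CPM per kilobase in any library and overlapped each other in both groups. With the union of all annotated exons as length, chosen after the data were seen, Lgals3 (1569) and Gpnmb (1537) changed places with β-elemene, and Trem2 (142) came below Cd9 (268) but above Fabp5 (120). With PBS, Tyrobp (1098) passed Gpnmb (973), and the order Trem2, Fabp5 and Cd9 became Cd9 (231), Fabp5 (163) and Trem2 (144). Of all library counts, the 10 genes held 1.24%, 1.42% and 1.39% with β-elemene, against 2.51%, 2.62% and 2.47% with PBS.

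**Figure D4:**
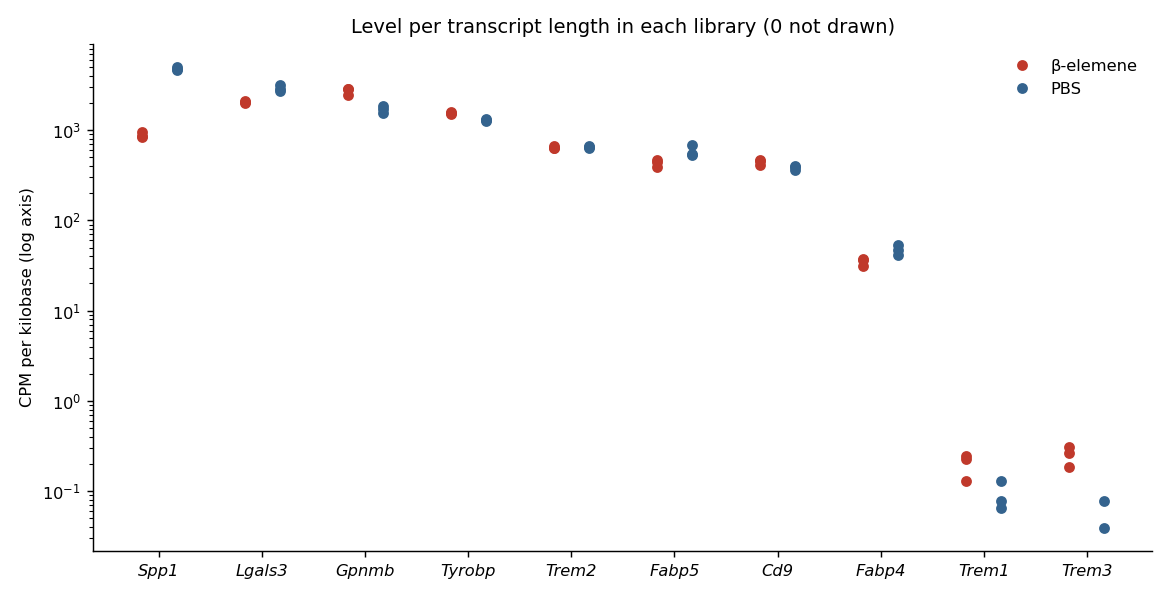
Level per kilobase of transcript in each library on a log axis, with genes ordered by their mean with PBS and a count of 0 (Trem3, PBS replicate 1) not drawn. Spp1 is first with PBS at 4821 CPM per kilobase and lies at 887 with β-elemene, and Trem1 and Trem3 lie below 1.

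Genes that work with these receptors were taken from lists of the same pathways, and each one said to rise or fall passed the edgeR test at an adjusted p of 0.05, with its log2 fold change or its levels given. Beside each list count with TMM stand the shares over all genes tested, 36.6% higher and 40.2% lower. Of 13 tested genes on a list of the Trem family, receptors coupled to Tyrobp and their relatives, 9 were higher, 3 were lower and 1 did not pass (median log2 fold change 1.11). The 9 include Pilra, an inhibitory receptor that does not use Tyrobp, and Hcst, an adaptor next to Tyrobp and not a receptor (0.34). The paired receptors Pilra, Pilrb1 and Pilrb2 rose by 5.78, 5.48 and 4.37 on the log2 scale, and reads of the closely related Pilrb1 and Pilrb2 could have been split between them. Pilrb1 was close to the limit of detection with PBS, at 16.5 ± 2.78 CPM with β-elemene and 0.363 ± 0.0813 CPM with PBS. It passed the filter through the β-elemene libraries. So did Cd300e, another of the 9, at 4.48 ± 0.984 CPM with β-elemene and 0.285 ± 0.193 CPM with PBS. Cd300lb, an activating receptor that uses Tyrobp, fell by 3.95 to 44.0 ± 6.96 CPM with β-elemene, against 678 ± 29.7 CPM with PBS. Siglec15, a Tyrobp-coupled receptor of osteoclasts, and Treml1, known from platelets, were the other lower genes, and both passed the filter through the PBS libraries. Siglec15 averaged 0.106 ± 0.0988 CPM with β-elemene, under the level of 3 counts, and 1.55 ± 0.106 CPM with PBS. Treml1 averaged 0.374 ± 0.279 CPM with β-elemene and 2.60 ± 0.427 CPM with PBS. Of 26 genes of Tyrobp and Syk signalling, 13 were higher, 11 were lower and 2 did not pass (median 0.20). Lyn, a Src-family kinase, rose by 2.89, and Malt1, a protease that relays Syk signals to NF-kB, rose by 3.29 to 1331 ± 56.0 CPM with β-elemene, against 136 ± 17.2 CPM with PBS. Its partner Card9 fell by 1.54, Vav2, an exchange factor, fell by 2.74, and Inpp5d, the lipid phosphatase SHIP1 that restrains Trem2 signalling, fell by 2.88.

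Trem2 is cut from the cell surface by Adam10 and Adam17, Gpnmb by Adam10, and matrix proteases can cut osteopontin. Of 11 genes of such cleavage, 10 were higher and Adam10 was lower (median 1.15), with 7 higher and 3 lower under library size alone. Adam10 fell by 1.44, to 106 ± 4.29 CPM with β-elemene, against 287 ± 11.0 CPM with PBS, whereas Adam17 rose by 1.28, to 441 ± 39.9 CPM with β-elemene, against 181 ± 1.90 CPM with PBS. The membrane-bound matrix protease Mmp14 rose by 2.44. Thrombospondin 1 (Thbs1), an adhesive matrix protein on the list, rose by 6.88 (edgeR adjusted p = 1.22e-05). Of 11 tested receptors and partners of osteopontin and Gpnmb, 6 were higher, 4 were lower and 1 did not pass (median 0.75). Itgb3 and Itgav, the chains of the classical osteopontin receptor, had log2 fold changes of -3.89 and -1.58. The rare Itga8 averaged 0.335 ± 0.132 CPM with β-elemene and 1.80 ± 0.0766 CPM with PBS, and it passed the filter through the PBS libraries. Itga4 and Itga5, chains of other integrins on the same list of receptors and partners, rose by 3.43 and 1.65, and the proteoglycan Sdc4 rose by 1.04.

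Of 40 other genes linked to lipid-associated macrophages, 19 were higher, 11 were lower and 10 did not pass with TMM (median 0.16), but 7 were higher and 27 lower with library size alone. Ch25h, which makes the oxysterol 25-hydroxycholesterol, rose by 7.57 to 147 ± 43.9 CPM with β-elemene, against 0.765 ± 0.326 CPM with PBS. Cst7, a protease inhibitor known from microglia that depend on Trem2, rose by 3.50, and Axl, a receptor for dying cells, rose by 2.05. Clec7a, the β-glucan receptor dectin-1 and likewise a marker of those microglia, fell by 2.95 to 221 ± 13.7 CPM with β-elemene, against 1703 ± 66.2 CPM with PBS. Abca1, a cholesterol exporter, fell by 1.65, and Ank, a pyrophosphate transporter, fell by 1.58.

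The families of the marker genes were mixed. Only Fabp3 and Fabp7 of 11 other lipid carriers passed the filter, and Fabp3, the heart-type carrier, rose by 3.13 to 141 ± 8.98 CPM with β-elemene, against 16.0 ± 1.65 CPM with PBS, while Fabp7, the brain-type carrier, averaged 14.9 ± 3.91 CPM with β-elemene and 20.2 ± 4.82 CPM with PBS and did not pass (edgeR adjusted p = 0.142). Of 8 tested galectins and partners of galectin-3, 6 were higher, 1 was lower and 1 did not pass (median 1.26). Lgals9, Lgals3bp and the galectin-3 ligand Lag3 rose by 2.71, 1.69 and 3.97, and Mgat5, which builds the sugar branches that galectin-3 binds, fell by 2.12. Of 15 tested tetraspanins and partners, 6 were higher, 6 were lower and 3 did not pass (median -0.07). Tspan33 and Tspan3 rose by 2.92 and 0.91, Tspan14 fell by 2.54, Cd151 fell by 1.95, and of the proteins that bind Cd9, Igsf8 rose by 2.23 and Ptgfrn fell by 2.42.

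Of 21 tested transcription regulators of the lipid-associated state, 9 were higher, 9 were lower and 3 did not pass (median 0.06), and 4 were higher and 13 lower with library size alone. Bhlhe40 and Cebpa had log2 fold changes of -4.21 and -3.99, and Cebpa fell to 16.6 ± 1.20 CPM with β-elemene, against 264 ± 15.5 CPM with PBS. Maf rose by 2.80, to 420 ± 12.8 CPM with β-elemene, against 60.3 ± 3.04 CPM with PBS, and Bhlhe41 and Hif1a rose by 1.51 and 1.21. Pparg, the nuclear receptor that drives Fabp4 in fat cells, and its partner Rxra were named after their values were seen, with log2 fold changes of -2.17 and -2.51 (edgeR adjusted p of 8.41e-09 and 1.06e-05). Over all lists, counting each gene once, 78 of 145 tested genes were higher and 45 were lower with TMM. The shares among all genes with TMM were 36.6% higher and 40.2% lower. With library size alone 49 were higher and 80 lower, beside 18.9% higher and 69.8% lower among all genes, and with the upper quartile 63 were higher and 61 lower, beside 25.7% and 57.0%. By list, library size alone gave 8 higher and 4 lower genes of the Trem-family list, 10 and 15 Syk signalling genes, 5 and 3 galectin genes, 3 and 10 tetraspanin genes, and 5 and 5 receptors of osteopontin and Gpnmb. Among the 9 tested receptor and marker genes, 8 had β-elemene libraries all above or all below the PBS libraries, as did 79.9% of all genes tested.

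**Figure D5:**
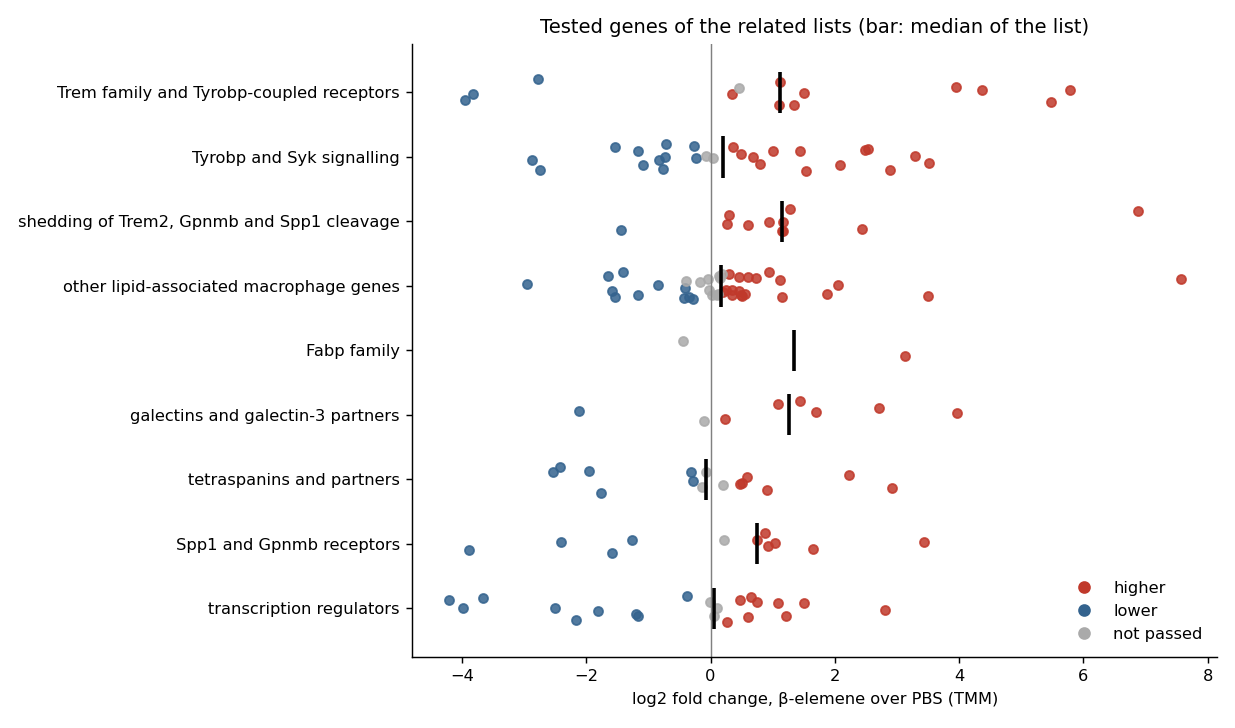
Log2 fold change (β-elemene over PBS, TMM) of each tested gene of the related lists, with genes past an adjusted p of 0.05 in red where higher and blue where lower, the others grey, and the list median as a bar. The lists of the Trem family with coupled and related receptors and of cleavage have medians of 1.11 and 1.15, while those of other lipid-associated genes, tetraspanins and regulators have medians of 0.16, -0.07 and 0.06.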

How the data were processed

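The genes and gene lists were chosen with earlier results of these data known. Stranded mRNA libraries were read as paired ends, per the labels' protocols. The submitters' processing notes list HISAT2 2.2.1.0 with the builds GRCm38.p6 and mm10. The authors deposited unnormalized whole-number counts of reads for each gene. How reads were counted, and with which strand setting, is not given in the sources used here. Where strand was not used, antisense genes cannot be told apart. A spreadsheet had turned 27 symbols into dates, and these were restored by gene identifier with the RefSeq table of GRCm38.p6, which gave the coordinates too.

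Titles of the samples gave group and replicate number. No 2 replicates agreed within sampling noise (chi-square per degree of freedom 3.82 to 13.8). The filter was filterByExpr with a minimum count of 10 and a minimum total of 15. Counts were scaled with TMM, and the robust quasi-likelihood test of edgeR 4.0.16 (R 4.3.3) had group as its only term, with p-values adjusted by Benjamini-Hochberg over 11459 genes. The procedure was run on simulated counts with 200 changed genes, whereas 8791 genes were called in the data. That run therefore cannot show whether the TMM scaling holds here. The SE is the log2 fold change divided by the square root of F. Ratios within a library used counts plus 0.5 and an exact permutation test in scipy 1.17.1. Lengths of principal transcripts came from GENCODE M21, of the same build. Windows of 100 bases that also occur in a transcript of another gene made up 5.85% of Spp1, 6.13% of Cd9 and 2.19% of Fabp5 windows and 0% for the other genes of the group.

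Named genes outside the group were fixed by rule as up to 3 passing genes in each direction per list, taken by size of change where the mean reached 1 CPM; Siglec15, Pparg and Rxra were added later, and some genes that met the rule are not reported here. The alternatives were other scalings, other filters, DESeq2 1.42.0, limma-voom 3.58.1, a replicate block and leaving out each library.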

Additional observations from a re-analysis of the deposited data

How the results depend on the processing

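Scaling decided most of what changed. With library size alone, 0 of the 10 genes were higher and 7 lower, over all genes 2166 were higher and 8003 lower, and over the related lists 49 were higher and 80 lower. With the upper quartile 1 of the 10 was higher. Tyrobp turned to -0.065 with the upper quartile and -0.387 with library size alone, and Cd9 to -0.102 and -0.424. Trem2 was 0.024 with size factors by median of ratios and with DESeq2, and -0.037 to 0.015 when a library was left out, none of which passed the test. Spp1, Lgals3, Fabp4 and Fabp5 kept direction and call in all 14 alternatives, with Spp1 between -3.08 and -2.38. The call for Trem1 held in 4 of the 12 alternatives that tested it (adjusted p of 0.0277 to 0.328), and a filter of 1 CPM in 3 libraries removed it. Trem3 was tested only without a filter (2.50, edgeR adjusted p = 0.0276), a fitted value at 0 to 5 counts a library. All 44 genes that the size rule took from the lists kept direction and call in each alternative that tested them. They were taken as the largest passing changes of their lists, so their stability says little about smaller changes. Genes named outside that rule, such as Hcst (0.34), are not among the 44.

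When a library was left out, the ratio of Fabp4 to Fabp5 lay between -0.104 and 0.102, with the sign changing, Spp1 to Gpnmb between -3.20 and -3.01, and Trem2 to Tyrobp between -0.300 and -0.239. No sign of pairing by replicate number was seen: deviations of same-numbered libraries correlated at -0.033, 0.057 and 0.015. So few libraries cannot show whether those with the same number shared a culture or an animal. A fit with a replicate block called 4188 genes higher and 4605 lower, and among the 10 genes it ended the call for Trem1 (edgeR adjusted p = 0.0714). Among the 10 genes, depth limits Trem1 and Trem3.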

Other observations

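Trem2 is a receptor of osteoclasts as well. Of 7 tested markers of that cell type, 3 were higher and 3 lower with TMM, beside 36.6% higher and 40.2% lower among all genes tested. Acp5, the tartrate-resistant phosphatase, rose to 464 CPM with β-elemene, against 156 CPM with PBS (log2 fold change 1.58, edgeR adjusted p = 6.34e-08), and Dcstamp, a fusion receptor, rose to 22.4 CPM with β-elemene, against 10.9 CPM with PBS (1.04, edgeR adjusted p = 5.75e-04). Ocstamp, its partner in cell fusion, fell to 0.895 CPM with β-elemene, against 11.2 CPM with PBS (-3.63, edgeR adjusted p = 1.79e-09), and Atp6v0d2, a proton pump subunit, fell to 190 CPM with β-elemene, against 564 CPM with PBS (-1.57, edgeR adjusted p = 4.91e-07). Mmp9 had a log2 fold change of 1.16 (edgeR adjusted p = 1.47e-04) and Nfatc1 of -0.72 (edgeR adjusted p = 6.62e-06). Ctsk, the bone-degrading cathepsin, stood at 53.2 CPM with β-elemene and 47.0 CPM with PBS and did not pass the test (0.18, edgeR adjusted p = 0.233). Calcr and Oscar, which mark mature osteoclasts, were near 0, with means of 0.128 and 0.0410 CPM with β-elemene and 0 and 0.0517 CPM with PBS. These genes were singled out after their values were seen.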
